A study of Mus musculus with 24 samples.

Results

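RNA from 8 libraries of E14 mouse embryonic stem cells (mESCs), out of 24 libraries in the whole series, was compared between soft and stiff StemBond hydrogels in 2i + LIF medium. StemBond hydrogels are polyacrylamide gels with a co-factor that tethers extracellular matrix protein to the gel. The libraries were chosen by time alone and are all those collected at 0 h in the PD03 removal experiment and in the CHIRON removal experiment. Each experiment contributed 2 soft and 2 stiff libraries, so that 4 soft libraries were set against 4 stiff libraries. All cells had been on fibronectin-coated gels for 12 h in the same medium, which held 1 µM PD03, 3 µM CHIRON and LIF. The experiments are named after the inhibitor that was withdrawn from their later libraries, and at 0 h neither inhibitor had been withdrawn. E14 is 1 established cell line, and no gene was altered in any group. The experiments were sequenced and counted separately, so that an experiment cannot be told apart from its sequencing run and its count table. The labels do not say that replicates came from separate cultures, so p-values measure the spread between these libraries, which may be technical. The question was which differences between substrates were present before inhibitor removal and were found in both experiments.

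PD03 blocks MEK and thereby ERK signalling, which otherwise drives mESCs out of the naive state. CHIRON inhibits GSK3, which stabilises β-catenin and relieves repression of naive genes by Tcf7l1, and LIF acts through Stat3. Cells sense a substrate through integrins and focal adhesions coupled to actin, and on stiff substrates the transcriptional regulators YAP and MRTF are known to become more active in many cell types.

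Total counts ranged from 20159493 to 28723066 per library, of which 76.7% to 83.0% fell on protein-coding genes. Libraries correlated at 0.989 to 0.994 (log2 CPM, counts scaled to a fixed library size) within a group, at 0.988 to 0.993 between substrates of the same experiment and at 0.892 to 0.902 between experiments. The experiment therefore accounted for most of the variation between libraries (88.7% on the leading principal component). The stiff pair of CHIRON removal had a chi-square of 19.8 for each degree of freedom, where sampling alone gives about 1, compared with 2.67 to 6.61 in the other pairs. Replicate 2 of that pair stood apart, with 2.35% of its counts on the mitochondrial genome against 3.36% to 4.11% in the other 3 CHIRON removal libraries. Some counts of calls, list medians and named genes that it moved are also given without it.

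The cells expressed the genes of naive mESCs on both substrates. Per kilobase of exon, mean CPM over the 8 libraries was 364 for *Nanog*, 399 for *Pou5f1*, 392 for *Zfp42* and 176 for *Esrrb*, against a median of 5.09 over all tested genes. Of the other naive factors, *Dppa3* and *Sox15* lay nearer that median, at 8.6 and 8.31. The primed epiblast genes *Otx2* and *Pou3f1* lay at 0.54 and 0.475 on the same scale, and *Fgf5* was below the filter on low counts. Not all formative and primed genes were low, with *Tubb6* at 31.8, *Dnmt3b* at 27.9, *Zic2* at 27.5 and *Foxd3* at 26.2. Of 7 marker lists for other cell types, none had a gene that passed the test between substrates. The summed CPM of primitive endoderm markers was 321 to 355 on soft and 333 to 361 on stiff substrates, and 5 of its 12 markers, *Sox17* and *Foxa2* among them, were under 1 CPM in every library. Fibroblast markers summed to 16.6 to 20.4 on soft and 15.7 to 20.6 on stiff substrates, with *Col1a2*, *Dcn*, *Lum* and *Postn* under 1 CPM throughout. At an unadjusted p under 0.05 were *Kdr* of the primitive streak list and *Dazl* and *Mael* of the germ cell list, and the endoderm, trophoblast, neural, fibroblast and two-cell-like lists had none.

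No gene passed the test between soft and stiff substrates in 2i + LIF over both experiments. Of 13923 protein-coding genes, edgeR's quasi-likelihood test with the experiment as a block called 0 (0%) at an adjusted p under 0.05, and DESeq2 called 1, *Dnmt3l*. At an unadjusted p under 0.05 edgeR found 798 genes (5.73% of those tested), of which 427 (3.07%) were higher and 371 (2.66%) lower on soft substrates, and DESeq2 found 532. Within PD03 removal edgeR called 0 genes (0%), with 489 (3.51%) at an unadjusted p under 0.05, of which 292 (2.1%) were higher and 197 (1.41%) lower on soft substrates. Within CHIRON removal it called 0 genes (0%), with 898 (6.45%) at an unadjusted p under 0.05, of which 447 (3.21%) were higher and 451 (3.24%) lower. DESeq2 called 0 in either experiment, with 239 and 461 genes at an unadjusted p under 0.05. The difference between the experiments in soft against stiff was called for 0 genes (0%) by both tools, with 559 (4.01%) at an unadjusted p under 0.05 by edgeR and 255 by DESeq2.

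Without the filter on low counts edgeR called 43 genes over both experiments (19 higher and 24 lower on soft substrates), and 7 in each experiment in the same direction. Of the 43 genes, 9 were among the 32 repeated genes described below. Of the 7 called in each experiment, 6 were predicted genes with many near copies (*Gm10717*, *Gm10719*, *Gm10721*, *Gm10800*, *Gm10801* and *Gm21738*), which are uncertain, and the other was *Dnmt3l*, lower on soft substrates. Without stiff replicate 1 of CHIRON removal, which leaves the library that stood apart as the lone stiff sample there, 21 genes were called over both experiments and 348 in CHIRON removal. Without stiff replicate 2 the counts were 1 and 6. Of the 348 genes, 173 had the same sign when the other stiff library was used instead and 191 had it in PD03 removal, and 1 was called with the other library.

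The interval of the difference was narrow for most genes, but it is not adjusted for the number of genes tested. A small difference could thus have an interval without 0 and still not pass the adjusted test. *Dnmt3l*, described below, was such a gene, with a log2 difference of -0.32 and an adjusted p of 0.31 by edgeR. The 95% interval of the difference over both experiments lay within 1.5-fold in either direction for 11004 genes (79.0%) and within 2-fold for 12561 (90.2%). The median distance from the estimate to the end of its interval was 0.10 on the log2 scale for the 4592 genes at or above 50 CPM, 0.17 for genes of 10 to 50 CPM, 0.38 for genes of 1 to 10 CPM and 0.91 for the 1464 genes under 1 CPM. The median absolute difference of all genes was 0.064 on the log2 scale, and 70 genes differed by more than 2-fold.

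**Figure D1:**
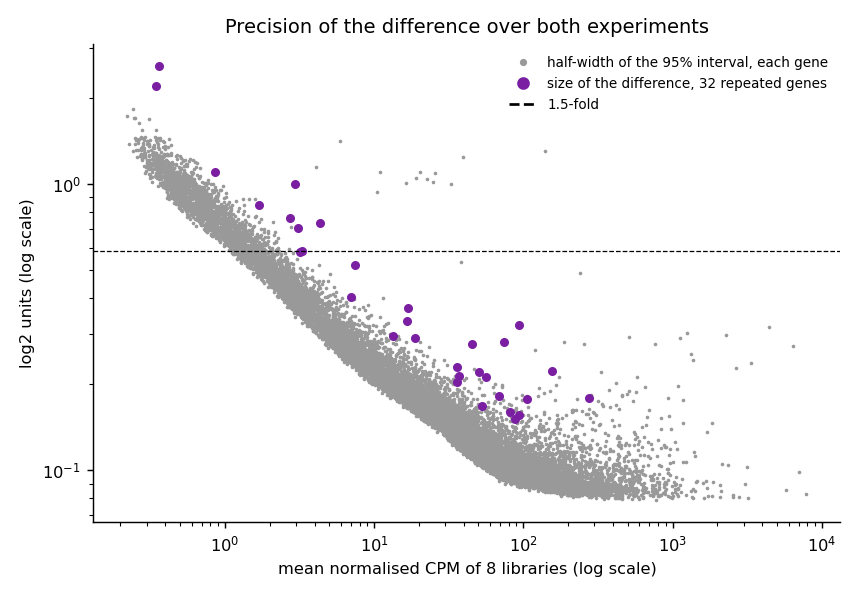
Precision of the difference between soft and stiff substrates against expression. The x axis is the mean normalised CPM of the 8 libraries and the y axis is in log2 units, both on log scales; each grey point is the distance from a gene's estimate to the end of its 95% interval, purple points are the sizes of the difference for the 32 genes described in the text, and the dashed line marks 1.5-fold. The grey points fall from a median of 0.91 under 1 CPM to 0.10 at or above 50 CPM. The purple points lie above most grey points of like expression because they were chosen for a small p.

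The differences of the 2 experiments had little in common over all genes. Their Pearson correlation over 13923 genes was 0.0226 and the Spearman correlation 0.066, given as a description of genes that share the same libraries, and 52.5% of genes had the same sign in both. Of the 489 genes of PD03 removal at an unadjusted p under 0.05, 300 (61.35%) had the same sign in CHIRON removal, and of the 898 of CHIRON removal, 531 (59.1%) had the same sign in PD03 removal. Soft and stiff libraries did not overlap in normalised CPM for 5136 genes (36.9%) in PD03 removal and 4406 (31.6%) in CHIRON removal. With 2 libraries against 2, groups often separate without any difference between substrates, so these shares do not measure one. In both experiments at once they did not overlap for 495 genes (3.56%) that were higher and 482 (3.46%) that were lower on soft substrates, and for 651 genes (4.68%) whose directions were opposite.

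Repeated differences were few and mostly small. In both experiments 32 genes (0.23% of those tested) had an unadjusted p under 0.05 and the same direction, and 7 (0.0503%) had opposite directions. The 32 made up 6.54% of the PD03 removal list and 3.56% of the CHIRON removal list. Of them, 22 were higher and 10 lower on soft substrates, and DESeq2 found 10 genes by the same criterion. They are named here as a description, since they were chosen on these values, and their adjusted p over both experiments was 0.31 to 0.823 (edgeR). The median absolute log2 difference was 0.29, 24 of the 32 differed by less than 1.5-fold and 4 by more than 2-fold, 3 lay under 1 CPM, and the genes were spread over 13 chromosomes. Libraries of the 2 substrates did not overlap in either experiment for 31 of them, the exception being *Lrp2*. Their difference in soft against stiff between the experiments had an unadjusted p of 0.0774 or above. The choice of these genes for the same direction in both experiments favours this and the lack of overlap.

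**Figure D2:**
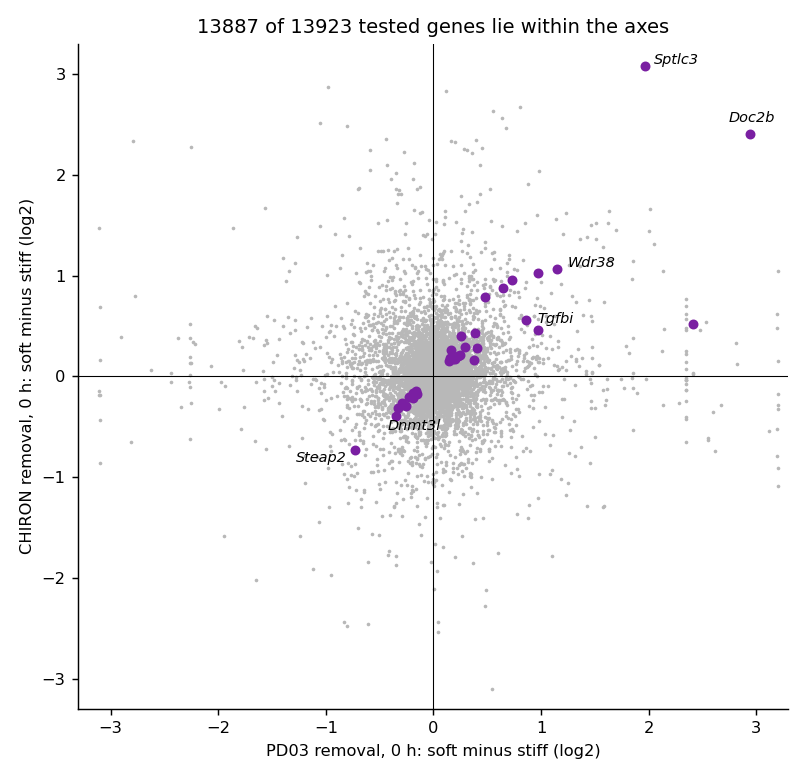
Difference between soft and stiff substrates at 0 h in the PD03 removal experiment (x axis) and in the CHIRON removal experiment (y axis), both as soft minus stiff on the log2 scale. Of the 13923 tested genes 13887 lie within the axes. Purple points are the 32 genes with an unadjusted p under 0.05 and the same direction in both, and grey points are the other genes within the axes. The grey cloud shows no slope (Pearson 0.0226 over all genes), and the purple points lie close to the diagonal because they were chosen for it.

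*Dnmt3l*, the catalytically inactive partner of the de novo DNA methyltransferases, had the smallest p over both experiments and was lower on soft substrates in both. The gene (ENSMUSG00000000730) lies on the plus strand of chromosome 10, from 78041947 to 78063622 in GRCm38. In PD03 removal its normalised CPM was 88.5 and 106 on soft and 124 and 120 on stiff substrates. The CHIRON removal values were 65.8 and 74.5 on soft and 88.3 and 86.5 on stiff substrates. Every soft library was thus below every stiff library of its experiment. The log2 difference was -0.32 over both experiments (SE 0.0565, 95% interval -0.44 to -0.20, adjusted p = 0.31 by edgeR), -0.33 in PD03 removal and -0.32 in CHIRON removal. DESeq2 gave an adjusted p of 0.0111 for *Dnmt3l*, and edgeR without stiff replicate 1 or 2 of CHIRON removal gave 0.0216 and 0.0417. Without the filter on low counts the edgeR value was 7.54e-07. In the other 6 fits that left out 1 library the adjusted p of *Dnmt3l* was 0.104 to 0.997 (edgeR), and it was 0.334 with the size factors of DESeq2, 0.0513 with a replicate block, 0.757 over all joined genes and 1 in the fit of all 24 libraries or without the experiment as a block. The fit of all 24 libraries included a shallow library of 171333 counts, a stiff one at 2 h of CHIRON removal. The log2 difference of *Dnmt3l* was -0.33 in that fit and -0.33 in the same fit without the shallow library. *Dnmt3b*, a catalytic partner, had a log2 difference of -0.13 (95% interval -0.25 to -0.02) and did not pass the test.

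*Tns3*, which encodes a tensin that links integrins to actin, was the only gene of the 32 that belonged to a gene list of this report. Its CPM was 261 and 259 on soft and 313 and 280 on stiff substrates in PD03 removal, and 254 and 253 against 264 and 306 in CHIRON removal. The soft libraries were close together and below every stiff library, with a log2 difference of -0.18 (95% interval -0.28 to -0.08). *Enc1*, an actin-binding Kelch protein, had a CPM of 93.8 and 96.2 against 109 and 104 in PD03 removal and 79.0 and 83.6 against 91.9 and 88.2 in CHIRON removal, soft before stiff. Its difference was -0.16 (-0.25 to -0.06).

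*Adam23*, a catalytically inactive membrane protein that binds integrins, differed by -0.22 (95% interval -0.34 to -0.10). *Kif23*, a kinesin of the central spindle in cytokinesis, differed by -0.16 (-0.25 to -0.07) and *Cep135*, a centriole protein, by -0.20 (-0.33 to -0.07). All 3 were above 30 CPM in every library, and their soft and stiff libraries were separated in both experiments by small steps.

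*Gsto1*, an omega-class glutathione transferase, had a CPM of 48.3 and 44.0 on soft and 55.2 and 57.9 on stiff substrates in PD03 removal. In CHIRON removal the values were 81.0 and 94.1 on soft and 101 and 110 on stiff substrates. Its log2 difference of -0.28 (95% interval -0.40 to -0.16) was nearly the same in both experiments. *Steap2*, a metalloreductase that reduces iron and copper, had the largest difference of those that were lower, -0.73 (-1.06 to -0.41). Its CPM was 3.39 and 2.30 against 4.19 and 5.25 in PD03 removal, and 3.55 and 3.77 against 5.80 and 6.39 in CHIRON removal. *Palm3*, a paralemmin of the plasma membrane, differed by -0.28 (-0.40 to -0.16). *Lrp2*, the endocytic receptor megalin, differed by -0.37 (-0.59 to -0.14), but a soft library of CHIRON removal at 17.1 CPM exceeded a stiff library at 16.7. Without the stiff library that stood apart *Lrp2* differed by -0.23 over both experiments and -0.07 in CHIRON removal.

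Among the 22 genes that were higher on soft substrates, those with the higher expression differed least. Their narrower intervals let smaller differences reach the threshold by which the genes were chosen. *Acss1*, the mitochondrial acetyl-CoA synthetase, had a CPM of 62.6 and 63.7 on soft and 56.4 and 56.4 on stiff substrates in PD03 removal. Those of CHIRON removal were 56.5 and 58.3 on soft and 48.6 and 47.0 on stiff substrates. Replicates were closer to each other than to the other substrate throughout, and the log2 difference was 0.21 (95% interval 0.11 to 0.32). *Hexa*, the alpha subunit of the lysosomal beta-hexosaminidase, differed by 0.18 (0.07 to 0.29), with 107 and 118 against 102 and 96.1 CPM in PD03 removal and 114 and 113 against 108 and 93.1 in CHIRON removal. *Trak1*, an adaptor of mitochondrial transport, differed by 0.15 and *Plekhb2*, a protein of recycling endosomes, by 0.17. *Mbd6*, a methyl-CpG-binding domain protein, differed by 0.22 (0.11 to 0.34), although its level stood at 9.92 to 13.8 CPM in PD03 removal and at 277 to 322 in CHIRON removal. *Msi1*, an RNA-binding regulator of translation in progenitors, differed by 0.18.

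Larger differences were found at low expression. *Tgfbi*, a secreted matrix protein that binds integrins and is induced by TGF-β, had a CPM of 4.06 and 3.17 on soft and 2.30 and 1.73 on stiff substrates in PD03 removal. In CHIRON removal it was 4.09 and 3.96 on soft and 2.90 and 2.55 on stiff substrates. All soft libraries lay above all stiff libraries, and the log2 difference was 0.71 (95% interval 0.33 to 1.08). The predicted gene *Gm35339* differed by 1.00 (0.52 to 1.49), *Wdr38* by 1.10 (0.43 to 1.77), *Spata1* by 0.84 and *Prob1* by 0.76. *Doc2b*, a calcium sensor of vesicle fusion, differed by 2.60 (1.33 to 3.86) and *Sptlc3*, a subunit of serine palmitoyltransferase, by 2.21 (0.96 to 3.46), but their highest CPM in any library was 1.13 and 1.04. *Sptlc3* had 0 counts in stiff replicate 1 of CHIRON removal.

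Others that were higher on soft substrates were *Trp53i11* (0.33), *Cd3e* (0.52), *Nlgn2* (0.23), *Tmem94* (0.21), *Tec* (0.58), *Dnah17* (0.40), *Mal* (0.29) and *Grk4* (0.58). *Cd3e*, known as a T cell receptor subunit, was read at 0.413 to 0.98 CPM in PD03 removal and 11 to 17.6 CPM in CHIRON removal. The genes that were higher on soft substrates had a lower median expression (10.5 CPM) than those that were lower (62.4 CPM), against 23.4 CPM for all tested genes. All 32 kept their direction under each of the 16 alternatives that gave a value over both experiments. These alternatives reuse the libraries on which the 32 were chosen, so the kept direction is no separate support. Without the low-count filter 9 of the 32 were called.

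**Figure D3:**
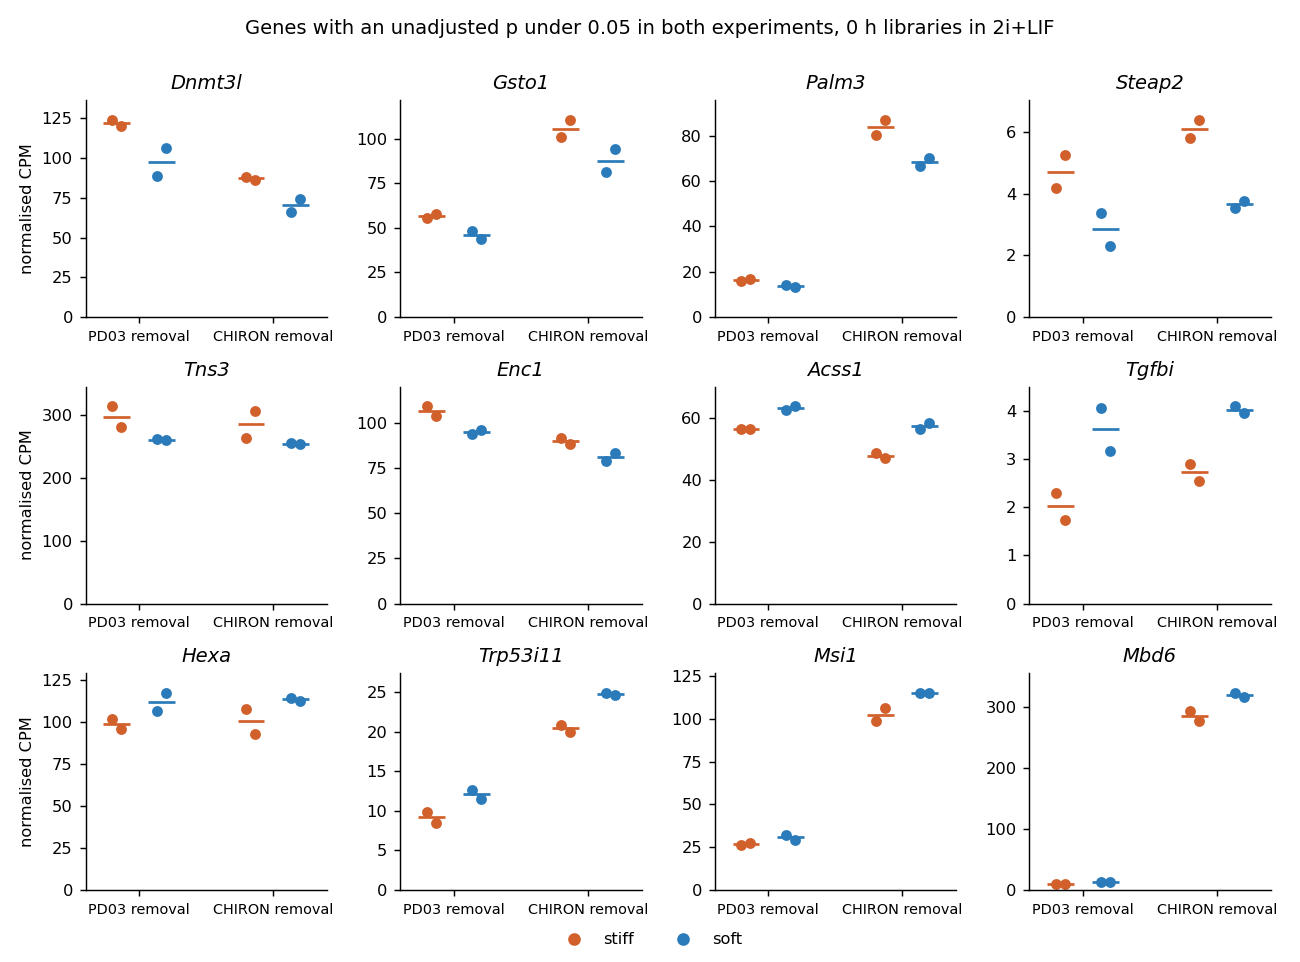
Normalised CPM of 12 of the 32 genes in the 8 libraries at 0 h, on linear axes that start at 0. Points are libraries (orange stiff, blue soft), bars are means of 2 libraries, and the experiments stand side by side in each panel. In all 12 panels the soft points lie to the same side of the stiff points in both experiments, with *Dnmt3l* lower on soft substrates by -0.32 and *Acss1* higher by 0.21 on the log2 scale.

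A family of near-identical predicted genes showed how large means can repeat without stable replicates. *Gm10717*, *Gm10719*, *Gm10721*, *Gm10800*, *Gm10801* and *Gm21738*, named after their values were seen, were called in both experiments only without the low-count filter. Since reads can be split between such copies, their counts are uncertain. *Gm10800* had a CPM of 33.8 and 1.79 on soft and 1.65 and 9.25 on stiff substrates in PD03 removal. The CHIRON removal libraries had 505 and 311 on soft and 250 and 10.3 on stiff substrates. Its log2 difference of 1.64 in the filtered fit had a 95% interval of 0.34 to 2.95 and an adjusted p of 0.823. Stiff replicate 2 of CHIRON removal, the library that stood apart, was the low one there, and in PD03 removal the substrates overlapped for all 6 genes.

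The later libraries, none of which entered the choice of the 32 genes, gave a separate view of them. In these fits of all times of 1 experiment, edgeR called 18 of 13389 genes (0.134%) between soft and stiff substrates at 2 h of PD03 removal and 103 (0.769%) at 12 h. In CHIRON removal it called 0 of 14568 genes (0%) at 2 h, with 832 at an unadjusted p under 0.05, and 0 (0%) at 12 h, with 469; DESeq2 was not run at these times. A stiff library at 2 h of CHIRON removal held only 171333 counts and was left out, so that the lone stiff sample there was assumed to vary like the other groups. Of the 32 genes, the direction of 0 h was found in 21 of 30 tested genes at 2 h and 21 of 30 at 12 h of PD03 removal. In CHIRON removal it was found in 25 of 31 at 2 h and 25 of 31 at 12 h. Over all genes the sign of 0 h was shared by 56.1% and 53.4% in PD03 removal and by 57.1% and 54.0% in CHIRON removal.

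*Dnmt3l* was lower on soft substrates at every time in both experiments. In PD03 removal its log2 difference was -0.33 at 0 h, -0.32 at 2 h (95% interval -0.44 to -0.20, adjusted p = 0.014) and -0.28 at 12 h (-0.40 to -0.17, adjusted p = 0.00831). In CHIRON removal it was -0.32 at 0 h, -0.32 at 2 h (-0.56 to -0.08, adjusted p = 0.82) and -0.22 at 12 h (-0.42 to -0.02, adjusted p = 0.999). In these fits *Dnmt3l* passed the test at all 3 times of PD03 removal (adjusted p = 0.0436 at 0 h) and at none of CHIRON removal, and the intervals of the experiments overlapped at each time.

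At 12 h of PD03 removal 3 further members passed the test, namely *Tns3* at -0.23 (adjusted p = 0.016), *Adam23* at -0.27 (adjusted p = 0.0292) and *Enc1* at -0.24 (adjusted p = 0.0269). In CHIRON removal the 12 h differences of *Tns3*, *Adam23* and *Enc1* were -0.13, -0.20 and -0.08, with intervals that included 0. *Acss1* was higher on soft substrates by 0.28 at 2 h and 0.27 at 12 h of PD03 removal and by 0.04 and 0.35 in CHIRON removal. *Steap2* kept its direction in PD03 removal (-0.77 and -0.50) but had 0.34 at 2 h of CHIRON removal, with an interval of -0.18 to 0.85. *Cd3e* had -0.42 at 2 h of CHIRON removal (-0.80 to -0.04), opposite to 0 h.

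**Figure D4:**
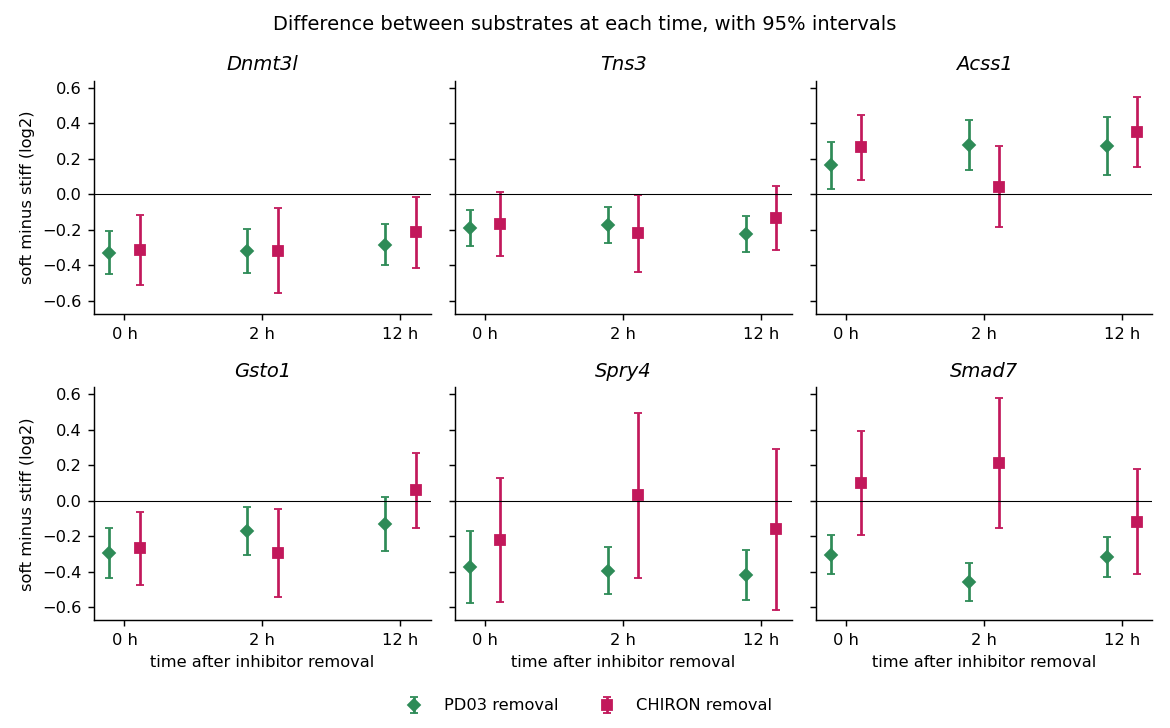
Difference between soft and stiff substrates at 0, 2 and 12 h for 6 genes, as soft minus stiff on the log2 scale with 95% intervals (green PD03 removal, magenta CHIRON removal, fits of all times of each experiment). *Dnmt3l* is below 0 at all 3 times in both experiments, and the *Smad7* intervals lie below 0 at all 3 times in PD03 removal and include 0 in CHIRON removal, with 0.10, 0.21 and -0.12.

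Some differences of PD03 removal did not return. Fitted on its own 4 libraries, whose biological coefficient of variation was 0.0369 against 0.0818 in CHIRON removal, PD03 removal gave 6 called genes, *Smad7*, *Erdr1*, *Dnmt3l*, *Kif5a*, *Phex* and *Peg10*, and CHIRON removal gave 0, with 441 at an unadjusted p under 0.05. *Smad7*, an inhibitor of TGF-β and BMP receptors, had a CPM of 109 and 109 on soft and 135 and 134 on stiff substrates in PD03 removal. The CHIRON removal values of *Smad7* were 145 and 132 on soft and 154 and 104 on stiff substrates, where the groups overlapped. Both soft values lay below stiff replicate 1 and above stiff replicate 2, the library that stood apart. Without that library the soft values were on the same side as in PD03 removal. The log2 difference of *Smad7* with all libraries was -0.30 in PD03 removal and 0.10 in CHIRON removal. That between the experiments was -0.40, with an adjusted p above the threshold. After PD03 removal *Smad7* was lower on soft substrates by -0.46 at 2 h (adjusted p = 6.1e-06) and -0.32 at 12 h (adjusted p = 0.00289).

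*Phex*, an endopeptidase of phosphate homeostasis, had a CPM of 1.51 and 1.33 on soft and 0.295 and 0.178 on stiff substrates in PD03 removal, but 0.807 and 1.04 against 1.42 and 0.947 in CHIRON removal. *Kif5a*, a kinesin heavy chain, differed by 0.43 and 0.10 in the 2 experiments, and *Peg10*, an imprinted gene derived from a retrotransposon, by -0.32 and -0.16. *Erdr1*, which has near copies and is uncertain, differed by 0.43 and 0.01. *Peg10* and *Kif5a* thus had the same sign in both experiments, whereas *Phex* changed sign.

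In CHIRON removal the smallest p values, in genes named after their values were seen, belonged to *Sp5*, *Abcg3*, *P2ry2* and *Gm15013*. *Sp5*, a transcription factor induced directly by β-catenin, had a CPM of 184 and 172 on soft and 146 and 140 on stiff substrates there. In PD03 removal it had 62.6 and 65.9 on soft and 58.2 and 60.5 on stiff substrates. All soft libraries were above the stiff libraries of their experiment, by a log2 difference of 0.32 (95% interval 0.18 to 0.45) and 0.11 (-0.03 to 0.26). *P2ry2*, a receptor for extracellular nucleotides, had 0.377 and 0.236 against 1.60 and 1.78 CPM in CHIRON removal and overlapped in PD03 removal.

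Of the 21 gene lists for pathways and cell functions, 444 of 480 genes were tested and 0 were called by edgeR. At an unadjusted p under 0.05 were 49 of the 444 (11.0%, against 5.73% of all genes), 20 higher and 29 lower on soft substrates. List medians lay between -0.06 and 0.07 on the log2 scale, against 0.0004 for all genes, and 13 of the 21 had the same sign of the median in both experiments. For 388 of the 444 genes the 95% interval lay within 1.5-fold. The genes named below for an unadjusted p under 0.05 did not pass the adjusted test over both experiments with all 8 libraries and the filter on low counts.

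Pluripotency factors were nearly level between substrates. The 22 naive factors had a median of 0.02, and the intervals of all 22 lay within 1.5-fold. *Nanog* had a CPM of 974 and 1004 on soft and 1027 and 1026 on stiff substrates in PD03 removal, and 648 and 636 against 651 and 554 in CHIRON removal, which gave 0.02 (95% interval -0.09 to 0.12). *Tfcp2l1* differed by 0.05 and *Esrrb* by -0.01, and *Klf2* (0.11) and *Klf5* (0.14) had an unadjusted p under 0.05. For *Klf5* and *Tfcp2l1* the soft libraries lay above the stiff ones in each experiment, as they did for 3.56% of all genes. *Klf5* differed by 0.12 in PD03 removal and 0.16 in CHIRON removal. The 12 general factors had a median of -0.04, with *Pou5f1* at 0.03 (-0.06 to 0.12) and *Trim28* at -0.07. *L1td1*, an RNA-binding protein of pluripotent cells, was below every stiff library on soft substrates in both experiments, at 380 and 382 against 424 and 404 CPM and at 610 and 619 against 667 and 744. Its difference was -0.16 (-0.25 to -0.07). Of 17 tested formative and primed genes, with a median of -0.03 (0.02 without stiff replicate 2 of CHIRON removal), *Dnmt3b* alone had an unadjusted p under 0.05, and *Zic2* differed by 0.06.

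Genes of the pathways that the inhibitors act on differed in both directions. The 24 tested ERK targets and feedback genes had a median of -0.02. At an unadjusted p under 0.05, *Jun* (0.44) and *Dusp1* (0.15) were higher on soft substrates (all genes: 3.07%). *Dusp6* (-0.16), *Spry4* (-0.29) and *Etv1* (-0.13) were lower at that p (all genes: 2.66%). *Dusp6*, a phosphatase of ERK, had a CPM of 31.7 and 31.3 on soft and 34.9 and 37.0 on stiff substrates in PD03 removal, and 18.2 and 17.6 against 19.9 and 19.2 in CHIRON removal. *Spry4*, a feedback inhibitor of receptor tyrosine kinase signalling, had 18.1 and 19.4 against 27.5 and 21.5, and 48.8 and 41.6 against 51.0 and 54.2. For both genes the soft libraries lay below the stiff ones in each experiment. The 2 most abundant members, *Etv5* and *Ccnd1*, differed by 0.02 (95% interval -0.07 to 0.11) and -0.07 (-0.16 to 0.03).

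Of 20 tested Wnt and β-catenin targets 15 had values above 0 (all genes: 6981 of 13923), with a median of 0.07. At an unadjusted p under 0.05 were 3, *Sp5* (0.22), *Nkd1* (0.40) and *Tcf7* (0.11), all higher on soft substrates (all genes: 3.07%). *Axin2*, a feedback inhibitor of the pathway, had 126 and 121 against 111 and 121 CPM in PD03 removal and 205 and 210 against 187 and 205 in CHIRON removal, and its difference was 0.09 (95% interval -0.01 to 0.18). The substrates overlapped in both experiments. *Cdx1* differed by 0.05. Without stiff replicate 1 of CHIRON removal the list median was 0.02 over both experiments, and that in CHIRON removal went from 0.10 to 0.05. Without stiff replicate 2, the library that stood apart, the list medians were 0.09 over both experiments and 0.15 in CHIRON removal. The 15 tested LIF and Stat3 targets had a median of -0.0043 and none at an unadjusted p under 0.05. *Klf4* differed by 0.05 (-0.03 to 0.14).

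Lists that follow mechanical input in other cells were also nearly level. The 24 tested YAP and TEAD targets had a median of -0.02 (0.01 without stiff replicate 2 of CHIRON removal), with *Ajuba* (-0.15) and *Crim1* (0.37) at an unadjusted p under 0.05. *Ctgf* had a CPM of 23.4 and 22 on soft and 27.1 and 23.9 on stiff substrates in PD03 removal, and 32 and 28.9 against 32.3 and 28.5 in CHIRON removal. Its difference was -0.08 (95% interval -0.24 to 0.08), and that of *Cyr61* was 0.04 (-0.11 to 0.19). The substrates overlapped for *Ctgf* in CHIRON removal. *Tead1* differed by -0.02 and *Dlc1* by -0.05, and *Ankrd1* was below the filter.

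The 25 tested SRF and MRTF targets had a median of -0.03, with 1 higher and 4 lower at an unadjusted p under 0.05. Of all genes 3.07% were higher and 2.66% lower at that p. Among these targets were *Lima1* (0.13), *Tagln2* (-0.12), *Thbs1* (-1.44) and *Myl9* (-0.98). *Thbs1*, a matricellular protein, lay at 0.173 to 0.33 CPM on soft and 0.295 to 1.18 CPM on stiff substrates. *Myl9*, the regulatory light chain of myosin, had 0.156 and 0.231 against 0.059 and 0.133 CPM in PD03 removal and 0.592 and 0.754 against 1.54 and 2.07 in CHIRON removal, opposite directions. *Actb* differed by -0.02 (95% interval -0.12 to 0.08) and *Actg1* by -0.06. The CHIRON removal median of the list was -0.06, and 0.02 without the library that stood apart.

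Of 27 tested integrin and focal adhesion genes (median -0.0083), 4 had an unadjusted p under 0.05, all lower on soft substrates (all genes: 2.66%). Besides *Tns3* these were *Itga3* (-0.13), *Itgb1* (-0.10) and *Ptk2* (-0.12), which encode integrin subunits and focal adhesion kinase. *Itgb1* had 154 and 161 against 172 and 176 CPM in PD03 removal and 124 and 140 against 135 and 141 in CHIRON removal, and the substrates overlapped in the latter. *Actn4* and *Actn1* differed by -0.03 and 0.03. Of 23 tested matrix genes, with a median of -0.06, *Col18a1* (-0.11), *Hspg2* (-0.24) and *Vim* (-0.15) had an unadjusted p under 0.05. *Hspg2*, which encodes perlecan, had 545 and 651 CPM on soft and 623 and 854 on stiff substrates in CHIRON removal, the highest value being that of the library that stood apart. Without that library the difference of *Hspg2* was -0.12 over both experiments and -0.05 in CHIRON removal, and that of *Vim* was -0.09 and -0.05. The CHIRON removal median of the matrix list was -0.12 with it and -0.05 without it. *Fn1* differed by -0.06 (95% interval -0.19 to 0.08) and *Lamc1* by -0.09. The 29 tested junction and epithelial genes had a median of -0.05, with *Grhl2* (0.32) at an unadjusted p under 0.05, *Ctnnb1* at -0.02 and *Cdh1* at -0.0039. Their CHIRON removal median was -0.06, and 0.0064 without the library that stood apart.

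**Figure D5:**
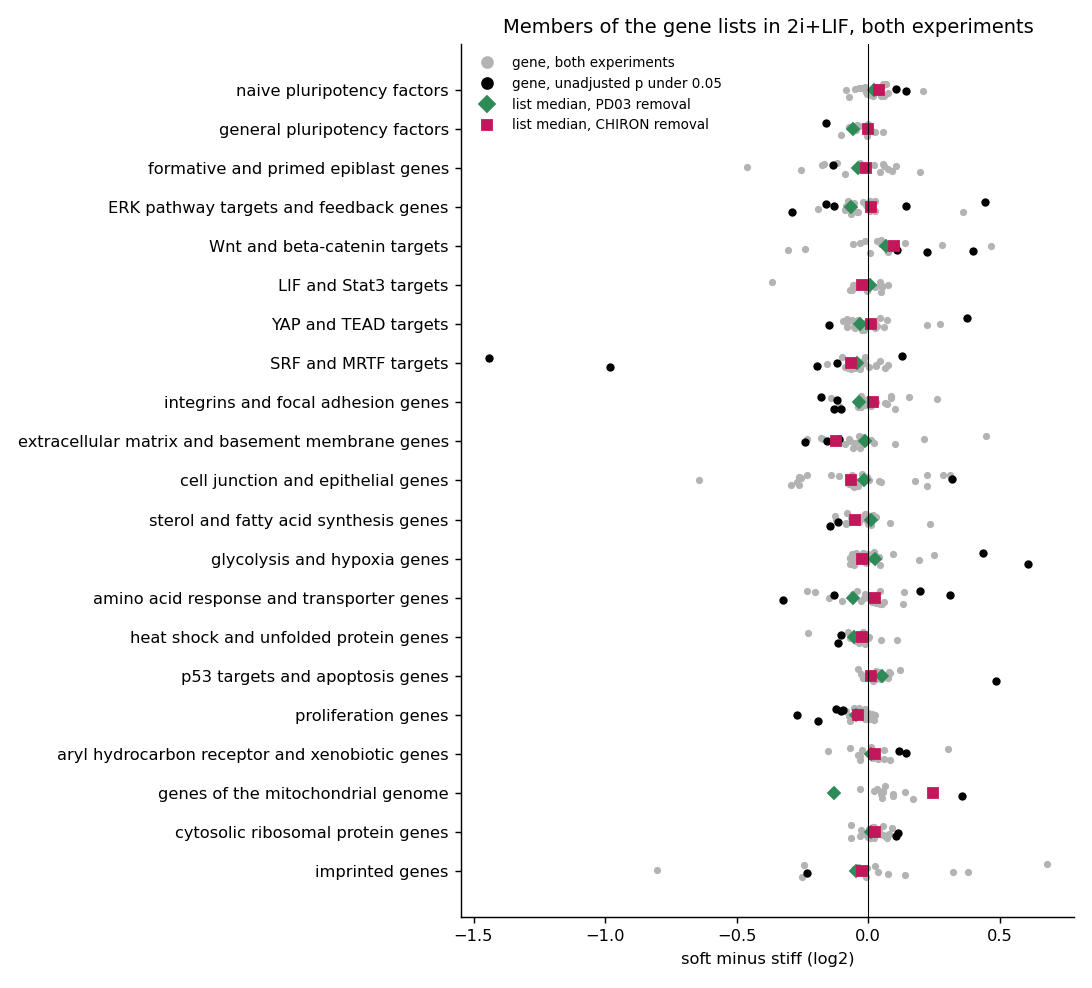
Differences between soft and stiff substrates for the tested members of the 21 gene lists, as soft minus stiff on the log2 scale (x axis). Small points are genes over both experiments (black where the unadjusted p is under 0.05), diamonds are list medians in PD03 removal and squares those in CHIRON removal. Medians over both experiments run from -0.06 to 0.07, and the mitochondrial list shows the widest gap between experiments, with -0.13 in PD03 removal and 0.25 in CHIRON removal.

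The 22 proliferation genes had a median of -0.04, with 5 at an unadjusted p under 0.05, all lower on soft substrates (all genes: 2.66%). These were *Mki67* (-0.19), *Top2a* (-0.10), *Ccne1* (-0.12), *Ccne2* (-0.27) and *Ccnd3* (-0.10), a nuclear marker of cycling cells, a topoisomerase of mitosis and 3 cyclins. *Ccne2* had 20.8 and 20.5 against 24.5 and 23.2 CPM in PD03 removal and 12.4 and 8.96 against 12.7 and 14.4 in CHIRON removal. The soft libraries were below the stiff libraries in both experiments. Without the library that stood apart, stiff replicate 2 of CHIRON removal, the difference of *Mki67* was -0.06. *Mcm5* differed by -0.02 (95% interval -0.10 to 0.07).

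Metabolic and stress lists held scattered members. Of 28 sterol and fatty acid genes (median -0.01), *Mvk* (-0.12) and *Acaca* (-0.15) had an unadjusted p under 0.05, and *Scd2* and *Fasn* both differed by -0.08. Of 27 tested glycolysis and hypoxia genes (median 0.0053), these were *Aldoc* (0.44) and *Slc16a3* (0.61), with *Gapdh* at 0.04 and *Pkm* at -0.04. *Aldoc* differed by 0.72 in PD03 removal and 0.20 in CHIRON removal, and *Slc16a3* by 1.19 and 0.09. Neither had an unadjusted p under 0.05 in CHIRON removal. Of 25 amino acid response and transporter genes (median 0.0056), *Chac1* (0.31) and *Slc1a4* (0.20) were higher and *Cth* (-0.13) and *Slc7a7* (-0.32) lower, with *Asns* at -0.01 and *Slc7a5* at 0.03. *Chac1* differed by 0.0098 in PD03 removal and 0.46 in CHIRON removal, and *Slc7a7* by -0.50 and -0.06.

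The endoplasmic reticulum chaperones *Hspa5* (-0.10) and *Hsp90b1* (-0.12) were those at an unadjusted p under 0.05 among 18 heat shock and unfolded protein genes (median -0.02), in which *Hsp90aa1* stood at -0.02 and *Hspa8* at -0.08. *Bmf* (0.49), which encodes a pro-apoptotic BH3-only protein, was the only such gene of 17 tested p53 and apoptosis genes (median 0.03), beside *Ccng1* at 0.04 and *Mcl1* at -0.04. The metallothioneins *Mt1* (0.12) and *Mt2* (0.14) were those of 15 tested xenobiotic response genes (median 0.02), and *Txnrd1* differed by -0.07. *Mt2* had 246 and 235 against 236 and 206 CPM in PD03 removal and 559 and 531 against 494 and 480 in CHIRON removal.

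The 13 genes of the mitochondrial genome did not repeat. Their median was -0.13 in PD03 removal, where 1 was above 0, and 0.25 in CHIRON removal, where all 13 were. The CHIRON removal median was 0.68 without stiff replicate 1 and -0.08 without stiff replicate 2, the library with the low mitochondrial share. *mt-Nd1* had 10298 and 8508 CPM on soft and 9792 and 4939 on stiff substrates in CHIRON removal, and 579 and 466 against 634 and 470 in PD03 removal. *mt-Co1* differed by 0.02 (95% interval -0.25 to 0.29) over both experiments. The 29 ribosomal protein genes had a median of 0.02, with *Rpl19* (0.10) and *Rps15* (0.11) at an unadjusted p under 0.05, *Rpl4* at 0.02 and *Rpl8* at 0.0026. Among 19 tested imprinted genes (median -0.03, and 0.0078 without stiff replicate 2 of CHIRON removal) *Peg10* (-0.23) alone had an unadjusted p under 0.05, and *Plagl1* and *Slc38a4* differed by -0.05 and -0.01.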

How the data were processed

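Gene counts of 8 libraries at 0 h were analysed. The authors trimmed reads with Trim Galore, aligned them to GRCm38 with TopHat2 2.1.0, counted reads per gene with featureCounts 1.5.0 and deposited the raw counts in a table per experiment; libraries had been depleted of ribosomal RNA. The strand setting is not given in the sources used here, which leaves the counts of genes that overlap on opposite strands uncertain. For PD03 removal, 23 empty lines and 12 columns of other samples were not used. Joining both tables by symbol left 34948 genes, of which 19260 were protein-coding in GENCODE M21.

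Protein-coding genes were filtered with filterByExpr (minimum count 10, minimum total count 15), scaled by TMM and fitted with edgeR 4.0.16 in R 4.3.3, with the experiment as a block over both experiments and 4 groups otherwise. The quasi-likelihood p was adjusted by the Benjamini-Hochberg method (threshold 0.05). CPM are the scaled values, and intervals are 95% intervals of the fit. DESeq2 1.42.0, its size factors, no filter, all joined genes, leave-one-out fits, a replicate block, no experiment block, all 24 libraries and separate fits were alternatives. Fits of all times used 23 libraries. Methods were tested on simulated data.

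The genes, lists and tests were chosen with earlier results of these data known. The naming rule took called genes, otherwise the 2 most abundant tested members of each list, and 8 fixed genes (*Nanog*, *Pou5f1*, *Ctgf*, *Cyr61*, *Actb*, *Fn1*, *Dusp6* and *Axin2*). All other genes were named after their values were seen. Some genes are counted but not reported here by name.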

Additional observations from a re-analysis of the deposited data

Results flagged for a closer look

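*Lefty2*, an inhibitor of Nodal signalling named after its values were seen, was marked because its difference between substrates in PD03 removal was not the same at 0 h and 2 h. It was 0.74 on the log2 scale at 0 h, where soft libraries had a CPM (of all counts, unscaled) of 10.7 and 7.94 and stiff libraries 6.16 and 5.08. At 2 h it was -1.30, with 2.23 and 2.69 on soft and 6.43 and 5.27 on stiff substrates. The later difference minus that at 0 h was -2.04 (SE 0.306, adjusted p = 0.00376 by edgeR in the fit of all times), and *Lefty2* was the only gene called by this test at 2 h or 12 h in either experiment. The 0 h difference of *Lefty2* had the opposite sign in CHIRON removal (-0.37, 95% interval -1.25 to 0.50), where its level was 0.628 to 1.62 in the 0 h libraries.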

How the results depend on the processing

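Of 336 list medians under alternatives, 331 stayed within 1 SD of the value reported, and of 5741 values of named genes, none of which was called at first, 5439 stayed within 1 SE, 197 moved further and 105 were called. Counts of called genes did not stay at 0 everywhere. Over both experiments DESeq2 called 1 gene (*Dnmt3l*), no low-count filter 43, and the replicate block, which pairs libraries by their number, 1 (*mt-Atp8*, adjusted p = 0.0317, mean difference 0.37). Same-numbered libraries deviated together with correlations of -0.029 and 0.059, so the numbers did not pair them, and the block called 0 in either experiment. No low-count filter called 13 genes in PD03 removal, 51 in CHIRON removal, 6 for the difference between experiments and 7 in both experiments in the same direction. Separate fits of 4 libraries called 6 genes in PD03 removal, and separate fits of all times, added after seeing the data, called 4. Leaving out each library in turn gave 0 to 21 genes over both experiments, 0 to 0 in PD03 removal, 0 to 348 in CHIRON removal, 0 to 48 for the difference between experiments and 0 to 0 in both. All counts above 0 came without stiff replicate 1 of CHIRON removal (21, 348 and 48) or without its replicate 2 (1, 6 and 3). The cause was not tested. All other alternatives called 0 genes, among them DESeq2 size factors, all joined genes, no experiment block and all 24 libraries in one fit. Genes at an unadjusted p under 0.05 over both experiments numbered 46 without the experiment block, 321 with all 24 libraries, 907 without the shallow library at 2 h (added after seeing the data), and up to 1150 with a library left out, against 798. Those found in both experiments in the same direction numbered 4 with all 24 libraries and 102 without stiff replicate 1 of CHIRON removal, against 32. The correlation of the experiments' differences ranged from -0.0256 to 0.102. With 2 libraries per group, differences under 1.5-fold could not be resolved for most genes under 1 CPM.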
